A study of Homo sapiens with 4 samples.

Results

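TIPARP and 9 other enzymes of the PARP family were followed in 22Rv1 cells, a line grown from a human prostate carcinoma, with and without a herbal extract. The members were chosen by name (TIPARP, PARP1, PARP2, PARP3, PARP4, PARP6, PARP8, PARP9, PARP12 and PARP14), and every probe annotated to one of them was taken. They account for 17 of the 47320 probes and 10 of the 20046 named genes on the array, and 9 members with 12 probes were detected well enough to be tested. The groups were vehicle (2 arrays) and WCE, the extract, at 10 µg/mL (2 arrays), both for 16 h, and the question is how the extract alters transcript levels. Nothing in the labels ties replicates to separate cultures. The p-values therefore cover only the variation among these 4 arrays, which may be technical.

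PARP enzymes take ADP-ribose from NAD+ and attach it to proteins and nucleic acids. Some build long chains at DNA breaks, whereas most members add a single ADP-ribose unit. TIPARP, also called PARP7, is of the latter kind. It is switched on by the aryl hydrocarbon receptor, which binds dioxins and related aromatic compounds, and modifies that receptor in a negative feedback loop. In prostate cancer cells androgen also induces TIPARP, which marks the androgen receptor with ADP-ribose that PARP9 and its partner DTX3L then bind. PARP9, PARP12 and PARP14 are known as interferon-induced members with roles in antiviral defence.

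Promoter windows are shown for the member that rose and for the 3 members with lower means whose windows hold an interferon motif. Each window, from RefSeq on GRCh38.p14, runs from 250 bases before to 50 bases after an annotated transcript start and is written 5′ to 3′ on the strand of the gene. In TIPARP (chr3:156674340-156674639, plus strand) capitals mark the core of the xenobiotic response element bound by the aryl hydrocarbon receptor, GCGTG, here read on the opposite strand. In PARP9 (chr3:122564251-122564550, minus strand), PARP12 (chr7:140062902-140063201, minus strand) and PARP14 (chr3:122680589-122680888, plus strand) they mark the interferon-stimulated response element (GAAA, 2 bases of any kind, GAAA) on either strand, and in PARP14 also the gamma-activated site TTCNNNGAA.
TIPARP: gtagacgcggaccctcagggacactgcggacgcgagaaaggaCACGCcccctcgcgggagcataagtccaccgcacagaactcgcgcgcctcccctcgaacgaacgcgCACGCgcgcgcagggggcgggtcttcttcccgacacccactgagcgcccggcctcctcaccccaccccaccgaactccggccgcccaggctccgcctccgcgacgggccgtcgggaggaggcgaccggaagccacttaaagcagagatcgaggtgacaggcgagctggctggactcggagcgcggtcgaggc
PARP9: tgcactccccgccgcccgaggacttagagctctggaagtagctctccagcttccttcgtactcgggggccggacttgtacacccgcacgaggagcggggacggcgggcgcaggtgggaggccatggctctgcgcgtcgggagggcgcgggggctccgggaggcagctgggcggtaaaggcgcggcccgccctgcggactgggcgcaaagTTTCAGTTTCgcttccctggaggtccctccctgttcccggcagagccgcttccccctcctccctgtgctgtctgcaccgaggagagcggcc
PARP12: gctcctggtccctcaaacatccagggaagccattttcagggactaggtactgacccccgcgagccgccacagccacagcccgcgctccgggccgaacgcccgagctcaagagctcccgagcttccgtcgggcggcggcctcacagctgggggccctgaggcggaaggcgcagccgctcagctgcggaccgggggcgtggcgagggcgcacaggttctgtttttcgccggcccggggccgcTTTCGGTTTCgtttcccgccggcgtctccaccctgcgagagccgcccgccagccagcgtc
PARP14: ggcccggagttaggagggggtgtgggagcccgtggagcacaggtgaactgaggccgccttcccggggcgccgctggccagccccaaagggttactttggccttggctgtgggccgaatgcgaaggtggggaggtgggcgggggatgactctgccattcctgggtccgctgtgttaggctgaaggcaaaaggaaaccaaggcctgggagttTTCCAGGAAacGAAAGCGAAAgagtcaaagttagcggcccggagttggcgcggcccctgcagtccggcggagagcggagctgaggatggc

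Both strands of each window were searched, and TTCNNNGAA reads the same on either strand. In PARP14 the interferon and gamma-activated matches lie side by side without overlapping. Of the 10 members 9 had a window, with 14 windows in all. GCGTG was present in 8 of these 14 windows, against 36.5% of the 35116 windows of all genes. By gene it was present in 7 of the 9 members, against 40.6% of all genes with a window, so its presence does not set TIPARP apart. The TIPARP window shown held it 2 times, 12.7% of all windows held it at least 2 times, and the other 2 TIPARP windows held no match. The interferon-stimulated response element was found in windows of 3 members, PARP9, PARP12 and PARP14, or 3 of 14 windows, against 3.57% of all windows and 4.38% of all genes. TTCNNNGAA stood in windows of PARP2 and PARP14, or 2 of 14 windows, against 7.66% of all windows and 9.38% of all genes. The PARP9 match is also a match of DTX3L, on the same genome bases, because the genes start back to back and their windows share 137 bases. A match describes letters in a window and is not evidence of binding.

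**Figure D1:**
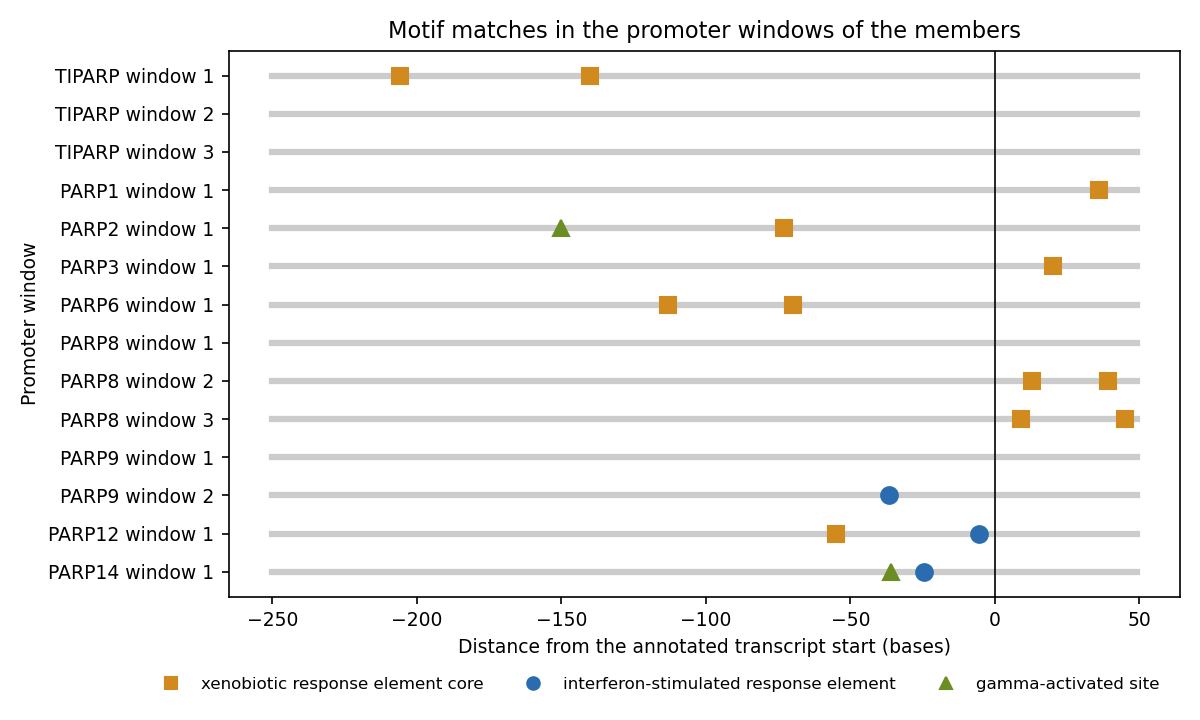
Positions of motif matches in the 14 promoter windows of the members, in bases from the annotated transcript start (vertical line), with squares for the xenobiotic response element core, circles for the interferon-stimulated response element and triangles for the gamma-activated site. The 3 windows with a circle are those of PARP9, PARP12 and PARP14, each with its circle before the start.

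Median raw signals on the 4 arrays lay between 81.7 and 85.1, and 45.2% to 48.9% of probes were detected on each, where detected means a detection p-value below 0.05. Signals below are background-corrected, quantile-normalized log2 values. A level compares arrays for 1 probe only and ranks no probe against another. Of 8 prostate luminal markers with a probe, 7 were detected on all 4 arrays and KLK3 on none. The leukocyte markers PTPRC and CD3E and all 4 endothelial markers were detected on none, while CD14 and LYZ of the leukocyte list were detected on all 4. Of 5 fibroblast markers LUM and COL1A1 were detected on all 4 arrays, DCN on 3, and COL1A2 and COL3A1 on none. Fewer cells of a type and less RNA per cell cannot be told apart in such samples.

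TIPARP rose and PARP14 fell, and no other member passed the threshold. These are 1 higher and 1 lower of 9 tested members at an adjusted p below 0.05 (limma, Benjamini-Hochberg over 12136 genes). Among all tested genes 1.89% passed, 1.18% higher and 0.709% lower after WCE. The same 1 and 1 were counted under each of the 15 other processing choices tried, which included leaving out each array. The number of called genes over the whole array, 229, moved far more, between 53 and 860. Of these calls 62.4% were higher after WCE, or 76.9% with median scaling of the arrays. With the replicate numbers fitted as a block 44.8% were higher, so the majority direction depended on the processing. Groups did not overlap in 7 of the 9 tested members, against 50.3% of all tested genes. Counted by probe they did not overlap in 9 of 12, against 49.3% of all kept probes. An exact permutation test of 2 arrays against 2 cannot give a two-sided p below 0.333, so every call rests on limma's pooled variance.

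**Figure D2:**
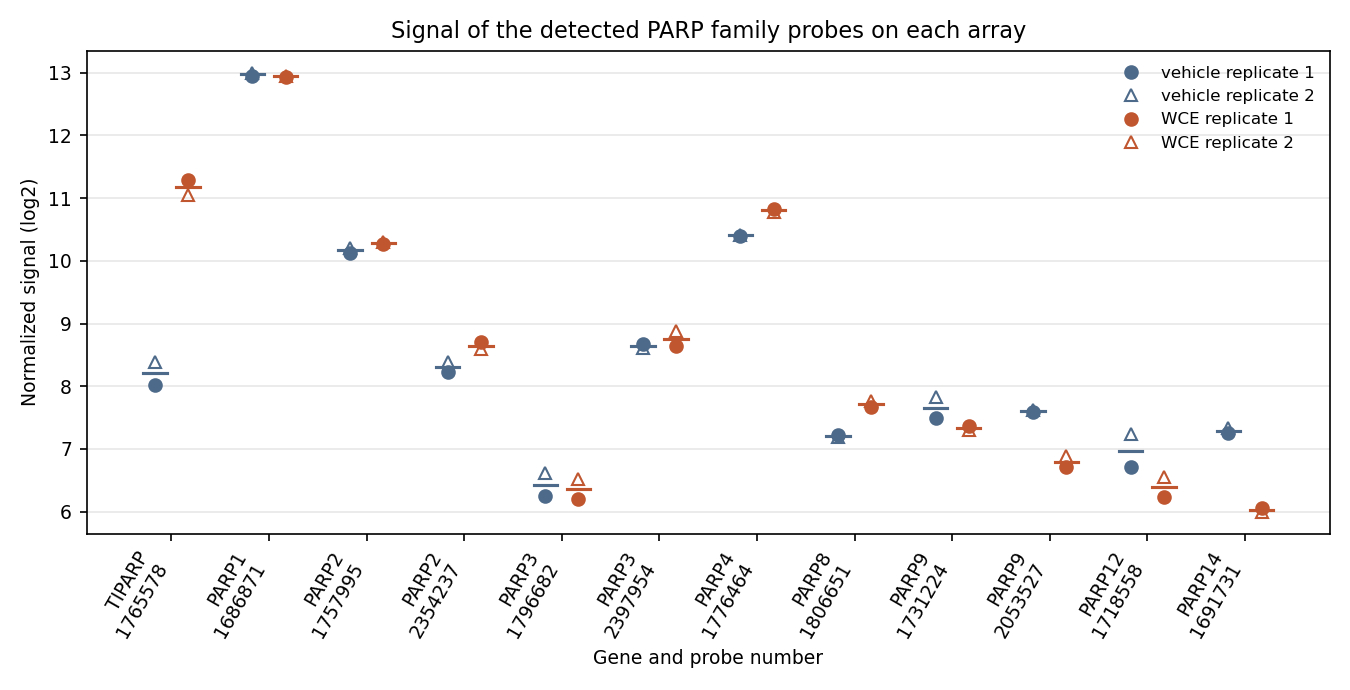
Normalized log2 signal of the 12 detected member probes (y axis) by gene and probe number (x axis), with blue for vehicle, orange for WCE, circles for replicate 1, open triangles for replicate 2 and bars for group means. Heights of different probes are not comparable. Both WCE points of TIPARP lie above 11 and both vehicle points below 8.4, and the WCE points of PARP14 lie more than 1 unit below its vehicle points.

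TIPARP (probe ILMN_1765578) had log2 signals of 8.02 and 8.39 with vehicle and 11.29 and 11.05 with WCE. Both WCE arrays were far above both vehicle arrays, and the arrays within a group differed by 0.37 and 0.24. The raw signals were 304.7 and 373.5 with vehicle and 2896 and 2122 with WCE, well clear of background throughout. The rise was 2.97 ± 0.19 (log2, SE, n = 2 per group), a 7.83-fold change with a 95% interval of 5.84 to 10.5, at an adjusted p of 0.000119 (limma). It was the sixth largest rise of the 12136 genes, and 99.95% of genes had a smaller change in either direction. Over the alternatives the value stayed between 2.76 and 3.17 with an adjusted p of at most 0.00835.

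The 5 genes named next lay closest to TIPARP in their pattern over the 4 arrays, measured as Euclidean distance between log2 values centred on the vehicle mean. They were UGT1A1 (distance 0.38), which conjugates bilirubin and drugs, CGA (0.38), the shared subunit of glycoprotein hormones, the pyruvate dehydrogenase kinase PDK4 (0.73), the activin antagonist FST (0.78) and TCIM (0.83). Their changes ran from 2.40 for TCIM to 2.98 for FST. With 4 arrays in 2 groups the measure follows mainly the size of the change.

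TIPARP is a target of the aryl hydrocarbon receptor, and 9 other genes of the receptor's axis had a probe. AHRR and ALDH3A1 were not detected on both arrays of either group and were left out of the test. Of the 7 tested genes 4 rose and 0 fell, against 1.18% and 0.709% of all tested genes. Their median log2 fold change was 2.03, against 0.02 over all tested genes. Over the alternatives this median lay anywhere between 0.22 and 2.12. The cytochromes CYP1A1, CYP1A2 and CYP1B1, which oxidise aromatic compounds, rose by 6.61, 5.54 and 4.57, and the quinone reductase NQO1 by 2.03, with adjusted p-values of at most 0.000441 (limma). Without background correction the same cytochromes rose by 5.71, 4.26 and 3.81. CYP1A2, detected on 1 of the 2 vehicle arrays, moved most of the 3. The filter kept it only through the WCE group, where it was higher, so its place among the 4 depends on that group. The receptor itself, AHR, had 12.44 and 12.44 with vehicle and 12.21 and 11.66 with WCE, a difference of -0.50 ± 0.20 (SE) that did not pass (adjusted p = 0.221, limma). With 1 array left out the AHR difference ranged from -0.79 to -0.22. ARNT, the receptor's dimerization partner, had 0.12 and NFE2L2, the stress factor NRF2, had 0.22, and neither passed.

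Receptors that TIPARP is known to act on, and their targets, gave 7 tested genes, of which 0 rose and 3 fell. By the same threshold 1.18% of all tested genes rose and 0.709% fell. The androgen-induced genes TMPRSS2, FKBP5 and KLK2 fell by 1.66, 1.25 and 1.05 on the log2 scale (adjusted p = 0.00201, 0.00748 and 0.0426, limma). The call of FKBP5 did not survive leaving out vehicle replicate 2 (adjusted p = 0.0704, limma), and that of KLK2 was lost in 7 of 14 alternatives. SREBF1, NR1H3, ABCG1 and MYLIP, the liver X receptor alpha and targets of the liver X receptors, had 0.44, 0.15, 0.13 and 0.12 without passing. The androgen receptor transcript was not analysed here.

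PARP14, a macrodomain protein that adds single ADP-ribose units and assists STAT6, was the member that fell. Its probe ILMN_1691731 had log2 signals of 7.25 and 7.33 with vehicle and 6.06 and 6.0 with WCE, and was detected on all 4 arrays. Neither WCE array came near the vehicle arrays, and arrays within a group differed by less than 0.09. The difference was -1.26 ± 0.16 (log2, SE, n = 2 per group), a 2.39-fold fall with a 95% interval of the log2 value from -1.61 to -0.90 (adjusted p = 0.00526, limma). Of all tested genes 99.4% had a smaller change in either direction. The size depended on the background correction, without which it was -0.82 (adjusted p = 0.00634, limma). With p-values adjusted over the 21996 kept probes in place of genes the call stood (adjusted p = 0.0116, limma), but was lost without a detection filter (0.0637) and without vehicle replicate 1 (0.0739), vehicle replicate 2 (0.132) or WCE replicate 2 (0.0803). Among these probes 0.846% passed.

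PARP9, which has macrodomains and pairs with the ubiquitin ligase DTX3L, had 2 probes that differed in size. ILMN_1731224, the brighter, had 7.5 and 7.82 with vehicle and 7.36 and 7.31 with WCE. Its groups did not overlap, though the vehicle arrays lay 0.33 apart, as far as the group means. The difference was -0.33 ± 0.17 (log2, SE), with a 95% interval from -0.72 to 0.07 (adjusted p = 0.351, limma). ILMN_2053527 had 7.58 and 7.62 with vehicle and 6.71 and 6.88 with WCE. Here both WCE arrays lay well below both vehicle arrays, by -0.80 ± 0.17 (log2, SE, adjusted p = 0.0713 over all probes, limma). This probe passed in 6 of 15 alternatives, among them the strict detection filter (0.0372), no background correction (0.0476) and the authors' processed values (0.048). Both probes are annotated to the same PARP9 transcript.

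PARP12, a zinc finger protein that restricts viruses, had 6.71 and 7.24 with vehicle and 6.23 and 6.55 with WCE. The groups did not overlap, but the 2 vehicle arrays lay 0.53 apart. Its difference of -0.58 ± 0.21 (log2, SE) had a 95% interval from -1.06 to -0.10 and did not pass over all genes (adjusted p = 0.184, limma). With 1 array left out the difference ranged from -0.85 to -0.32.

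PARP9, DTX3L, PARP15 and PARP14 follow one another as neighbouring protein-coding genes on chromosome 3 in the RefSeq annotation. DTX3L had 5.65 and 5.63 with vehicle and 5.33 and 5.17 with WCE, a difference of -0.39 ± 0.16 (log2, SE, adjusted p = 0.23, limma). It was detected on 1 of the 2 WCE arrays, so the lower signals are near background. PARP15 was detected on no array. Within this neighbourhood PARP14 alone passed in the reported fit, and PARP9 and PARP14, detected in both groups, had lower means after WCE. The lower mean of DTX3L adds nothing to this, since the filter kept it only through the vehicle group, where it was higher. Differences between these genes were not tested.

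Interferon signalling and interferon-stimulated genes gave 21 tested genes beside these members. Of them 0 rose and 1 fell, against 1.18% and 0.709% of all tested genes, with a median log2 fold change of -0.09. The member that fell was IFITM1, which blocks viral entry (-0.82 ± 0.16, SE, adjusted p = 0.0377, limma). Its call was lost in 9 of 15 alternatives, with adjusted p-values up to 0.246. IRF7, a transcription factor that drives interferon production, had -0.54, the peptide transporter TAP1 had 0.44, the interferon receptor chain IFNAR1 had 0.26 and the RNA sensor OAS3 had -0.28, and none of these passed. Of all 355 tested genes with an interferon-stimulated response element in a promoter window, 4 rose and 3 fell, or 1.13% and 0.845%. The 9736 tested genes with any window gave 1.16% and 0.668%. Their medians were -0.01 and 0.02.

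**Figure D3:**
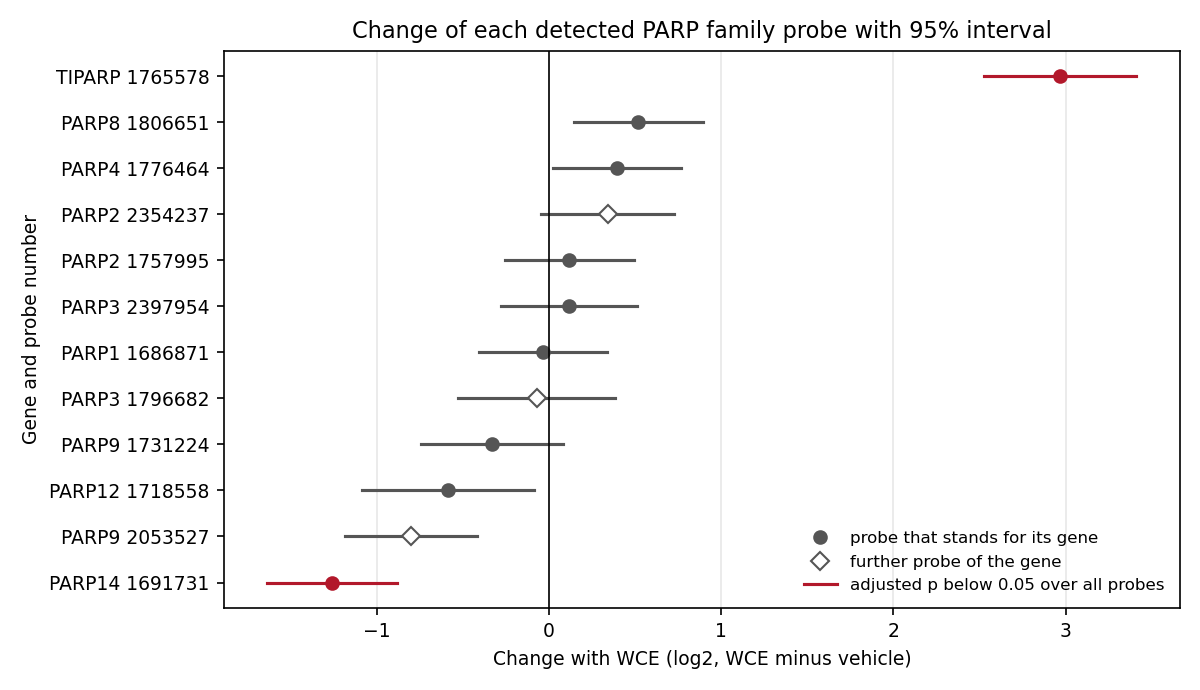
Change with WCE (x axis, log2, WCE minus vehicle) of each detected member probe (y axis), with bars for the 95% interval of limma's fit over all kept probes, filled circles for the probe that stands for its gene and open diamonds for further probes. The 2 probes in red, TIPARP at 2.97 and PARP14 at -1.26, passed an adjusted p of 0.05. The intervals of all PARP1, PARP2 and PARP3 probes and of PARP9 probe ILMN_1731224 include 0.

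None of the members that act at DNA breaks passed the threshold. PARP1, which builds most of the poly(ADP-ribose) made after DNA damage, had 12.95 and 13.00 with vehicle and 12.93 and 12.95 with WCE. The arrays overlapped, and the difference of -0.03 ± 0.16 (log2, SE) had a 95% interval from -0.38 to 0.32 (adjusted p = 0.943, limma). In fold terms this interval runs from 0.766 to 1.25. With median scaling the PARP1 value turned to 0.051.

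PARP2, which shares work with PARP1 at strand breaks, had 10.13 and 10.20 with vehicle and 10.27 and 10.31 with WCE on its brighter probe. The WCE arrays were slightly higher, by 0.12 ± 0.16 (log2, SE), with a 95% interval from -0.24 to 0.47 (adjusted p = 0.739, limma). Its second probe, annotated to another transcript of the gene, had 0.34 ± 0.17 (adjusted p = 0.335 over all probes, limma). That interval ran from -0.04 to 0.73. The groups did not overlap on either PARP2 probe, as on 49.3% of all kept probes. PARP3, which takes part in double-strand break repair, had 8.68 and 8.60 with vehicle and 8.64 and 8.88 with WCE. Its groups overlapped, with a difference of 0.12 ± 0.17 and a 95% interval from -0.26 to 0.49 (adjusted p = 0.762, limma). The second PARP3 probe had -0.07 ± 0.20. None of these probes passed, and changes inside the intervals given cannot be told from no change with 4 arrays.

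PARP4 and PARP8 were somewhat higher with WCE in every array without passing. PARP4, a component of the large ribonucleoprotein particles called vaults, had 10.40 and 10.42 with vehicle and 10.83 and 10.78 with WCE. The gap of 0.40 ± 0.16 (log2, SE) was much wider than the distance between arrays of a group, with a 95% interval from 0.04 to 0.75, but not past the threshold over all genes (adjusted p = 0.21, limma). MVP, the major vault protein, had -0.05, and 0.074 with median scaling. PARP8, which adds single ADP-ribose units and is little studied, had 7.22 and 7.19 with vehicle and 7.67 and 7.77 with WCE on ILMN_1806651. Its difference was 0.52 ± 0.16, with a 95% interval from 0.16 to 0.88 (adjusted p = 0.131, limma). The other 3 PARP8 probes, annotated to the same transcript, were detected on no array, with raw signals from 52.8 to 78.7. The PARP8 value therefore rests on 1 probe.

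PARP6, known for a part in the growth of neuronal dendrites in rodents, was not tested. One of its probes was detected on no array. The other, ILMN_1813620, had raw signals of 85.3 and 84.2 with vehicle and 88.1 and 72.2 with WCE and was detected on 1 array of each group.

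Without adjustment, 5 of the 9 tested members had p below 0.05, against 19.1% of all tested genes. They were TIPARP, PARP14, PARP8, PARP12 and PARP4. The 9 members had a median of 0.12 with 5 above 0 and 4 below, and the 8 without TIPARP had a median of 0.04 with 4 on each side. The median over all tested genes was 0.02.

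**Figure D4:**
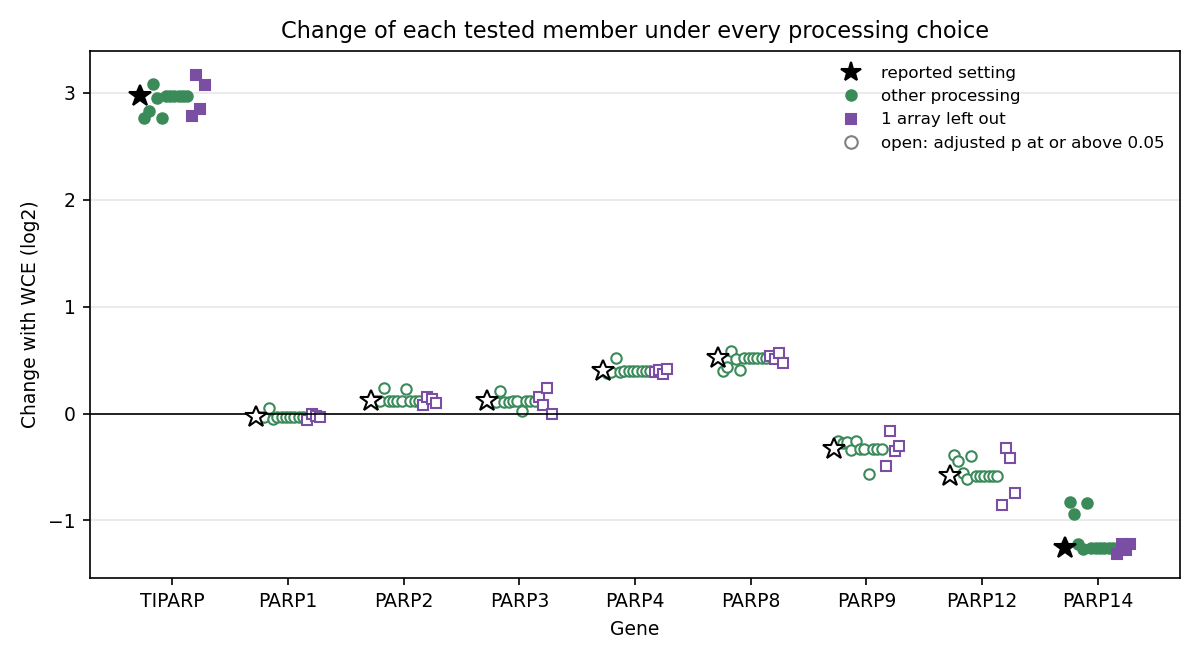
Log2 change with WCE (y axis) of the 9 tested members (x axis) under the reported setting (stars), 11 other processing choices (circles) and 4 fits with 1 array left out (squares), filled where the adjusted p was below 0.05. TIPARP between 2.76 and 3.17 and PARP14 between -1.31 and -0.82 are filled throughout, and the other 7 members are open throughout.

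Other enzymes of the superfamily could be tested for 3 of 7 genes, and 0 rose and 0 fell by limma's adjusted p, with 0 at an unadjusted p below 0.05. Over all tested genes these shares were 1.18%, 0.709% and 19.1%, so 0 of 3 says little about the list. ZC3HAV1, the antiviral protein ZAP, which lacks catalytic activity, had -0.28 on its brightest probe, while a further probe of it had 0.34. PARP16, an enzyme of the endoplasmic reticulum membrane, had 0.13. Tankyrase TNKS, detected on 1 of the 2 WCE arrays, had -0.04, and 0.087 without WCE replicate 2.

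Readers and removers of ADP-ribose gave 15 tested genes, of which 0 rose and 0 fell by limma's adjusted p, with a median of -0.03. By that threshold 1.18% of all tested genes rose and 0.709% fell. An unadjusted p below 0.05 was seen for 3 of the 15, close to the 19.1% of all tested genes. MACROH2A2, a histone variant with a macrodomain, had 11.09 and 11.04 with vehicle and 10.44 and 10.44 with WCE. Its difference of -0.63 ± 0.16 (log2, SE) did not pass (adjusted p = 0.0844, limma), but did in 4 alternatives, among them no background correction (0.0272). The mono-ADP-ribose hydrolase MACROD1 had -0.45 and RNF146, a ligase that recognises poly(ADP-ribose), had 0.34. PARG, which degrades the chains, and HPF1, the cofactor that directs PARP1 and PARP2 to serine, were named for their roles and had -0.13 and 0.13. The sign of PARG turned without WCE replicate 2, at 0.0096.

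NAD+ is the substrate of these enzymes, and 13 genes of its synthesis and use were tested, of which 0 rose and 1 fell. Over all tested genes 1.18% rose and 0.709% fell. NNMT, which methylates nicotinamide, was detected on both vehicle arrays and on neither WCE array. On the background-corrected scale its fall was bounded at 1.42-fold or more, while without background correction the difference was -0.39 (log2). The adjusted p of 0.0468 (limma) belongs to the fitted difference and not to the bound. The call of NNMT was lost in 11 of 14 alternatives. The mitochondrial NAD+ carrier SLC25A51 had 13.48 and 13.16 with vehicle and 13.14 and 11.93 with WCE. Its WCE arrays lay far apart, and the difference of -0.78 ± 0.33 (SE) did not pass. With 1 array left out this difference ranged from -1.40 to -0.18. NADSYN1, NMNAT3 and NMNAT2, enzymes of NAD+ synthesis, had 0.36, -0.21 and 0.21. NAMPT, which makes nicotinamide mononucleotide and was named for its role, had 0.10, and -0.13 with the mean of its probes.

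Sirtuins, deacylases that also consume NAD+, gave 6 tested genes, 0 higher and 0 lower by limma's adjusted p, with 0 at an unadjusted p below 0.05. Over all tested genes these shares were 1.18%, 0.709% and 19.1%, so 0 of 6 says little about the list. SIRT7, SIRT5, SIRT1 and SIRT4 had -0.34, -0.33, 0.25 and 0.22. Base excision and single-strand break repair, which PARP1 and PARP2 serve, gave 21 tested genes with a median of -0.08. Among them 0 were higher and 0 lower, against 1.18% and 0.709% of all tested genes. Of these 6 had an unadjusted p below 0.05, against 19.1% of all tested genes. The change was below 0 in 15 and above 0 in 6, where 52.2% of all tested genes were above 0. The uracil glycosylase UNG had -0.48, the phosphodiesterase TDP1 -0.67, the glycosylase MBD4 -0.77 and the glycosylase MPG 0.46, and none passed. Only 1 vehicle array detected MPG, and its value was 0.22 without background correction. With 1 array left out MBD4 ranged from -1.24 to -0.31 and TDP1 from -1.01 to -0.33. The scaffold XRCC1, which binds poly(ADP-ribose) and was named for its role, had -0.0039, with a 95% interval from -0.39 to 0.38.

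**Figure D5:**
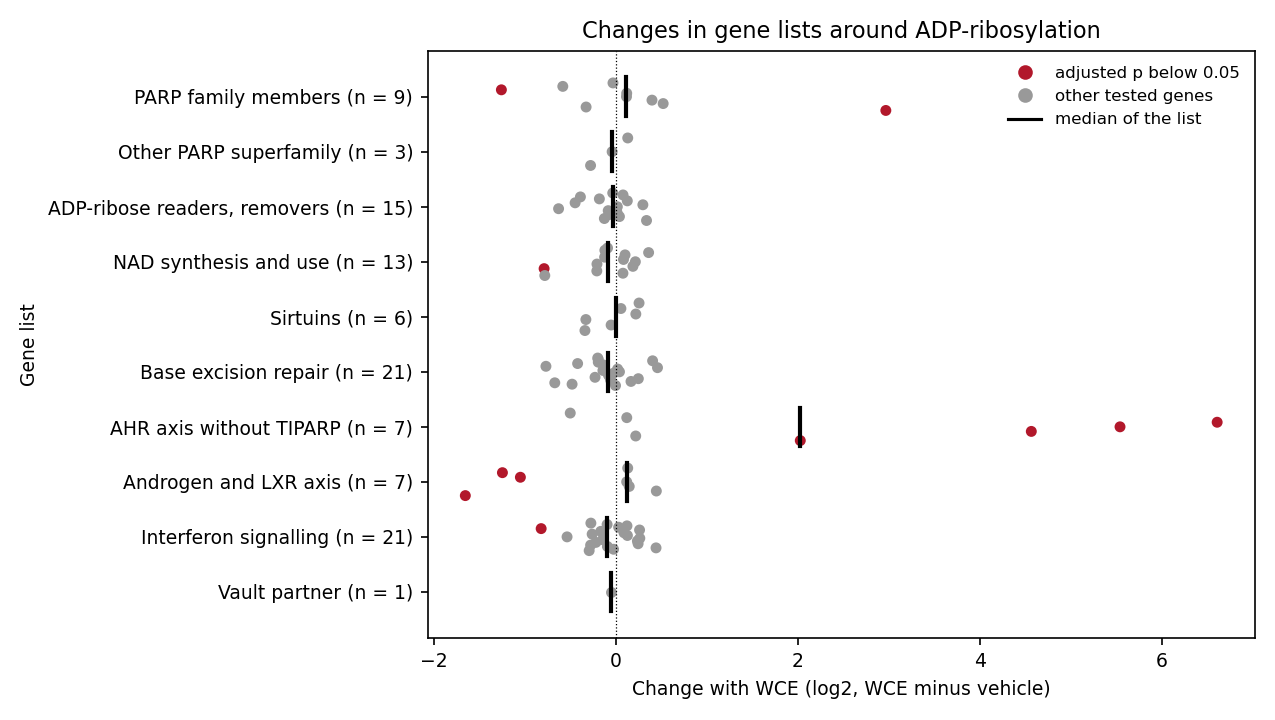
Log2 change with WCE (x axis) of every tested gene in 10 lists (y axis, number tested in parentheses), with red for an adjusted p below 0.05, grey for the rest and a black bar for each list's median. Red points stand in 5 lists, and the PARP family list holds 1 on each side of 0.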

How the data were processed

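Total RNA from 22Rv1 cells was amplified to biotinylated cRNA and hybridised to Illumina arrays, per the labels' protocols. The authors deposited linear bead intensities, neither background-subtracted nor normalized as far as the values show, with a detection p-value beside each, per the file headers. They also deposited normalized log2 values, with a method not given in the sources used here. These kept the rank order of the raw signals and lay within 0.136 of quantile-normalized log2 intensities, so their scale is log2 and uncentred, with column medians of 6.40.

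Intensities were corrected with normexp (offset 16, negative control level inferred from the detection p-values) and quantile-normalized in limma 3.58.1 under R 4.3.3. Of 47320 probes the 21996 detected (p-value below 0.05) on both arrays of either group were kept. Gene symbols came from the platform annotation, checked against a RefSeq table, which changed none: 30112 probes had 1 symbol, 8 had several and 17200 had none. Each gene was represented by its brightest kept probe. The difference between WCE and vehicle was fitted with lmFit and eBayes over 12136 genes, or over all kept probes, with Benjamini-Hochberg adjustment at 0.05, 2 residual and 7.12 prior degrees of freedom. Fold changes and 95% intervals are WCE minus vehicle on the log2 scale. Where a gene was undetected in a group, a bound was taken from the mean of the detected group over, per array, the larger of the undetected probe's own signal and the lowest detected one. The steps were tested on simulated data.

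The members and lists were chosen with earlier results of these data known. Every member was named, with each list's genes past the threshold, up to 4 more by smallest p, and PARG, HPF1, NAMPT and XRCC1 added for their roles after their values were seen, as were the promoter motifs. The number of arrays limits the precision. Same-numbered arrays did not deviate together (r = -0.16 across genes, which are not independent replicates), so the replicate numbers were not used to pair arrays.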

Additional observations from a re-analysis of the deposited data

How the results depend on the processing

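TIPARP and PARP14 passed in all 15 alternatives run at the level of genes, and PARP2, PARP4, PARP8, PARP9 and PARP12 kept their sign without passing in any. The count of called genes, 229, was 388 without background correction, 368 with an offset of 50, 130 with median scaling, 402 with the authors' processed values, 53 without a detection filter, 457 with a trended robust variance and 75, 77, 860 and 123 without vehicle replicate 1, vehicle replicate 2, WCE replicate 1 and WCE replicate 2. Of the calls 62.4% were higher after WCE, 76.9% with median scaling and 44.8% with the replicate numbers fitted as a block. The replicate block gave 745 calls, of which TIPARP and PARP14 were the only members. MBD4 (adjusted p = 0.0156), TDP1 (0.0449) and SLC25A51 (0.0136) also passed with it in limma. In that fit these 3 genes and every tested member had the same SE, 0.22. The spread of the single gene therefore did not enter these p-values. The crossed pairing, chosen after seeing the data, gave 167 calls. The sign turned for PARP1 (0.051), MVP (0.074) and XRCC1 (0.10) with median scaling and for NAMPT (-0.13) with the mean of its probes. With 1 array left out it turned for PARP3 (-0.0035 to 0.24 on its brighter probe, -0.25 to 0.11 on the other), ABCG1 (-0.033 to 0.30), ARNT (-0.079 to 0.33), MVP (-0.17 to 0.064), NR1H3 (-0.034 to 0.32), PARG (-0.26 to 0.0096), TNKS (-0.16 to 0.087) and XRCC1 (-0.15 to 0.14). A lone array is given the spread estimated from the other group. The cause was not tested for any of these. List medians near 0 changed sign between alternatives in all lists but those of the members, the aryl hydrocarbon receptor axis and interferon signalling. Signal over background limits CYP1A2, MPG, DTX3L, NNMT, TNKS, PARP6 and the dimmer PARP8 probes.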
